A study of Schmidtea mediterranea with 4 samples.

Results

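In tail tissue of a planarian flatworm, 97 well-expressed transcript IDs lay higher in both libraries made after RNA interference (RNAi) against nsf than in either control library. They were chosen by their own values in this comparison. An ID had to have a mean of at least 20 TPM (the usual unit of transcript abundance, corrected for length and scaled to a fixed total per library) over the 4 libraries and not to be among the 300 most abundant IDs of the controls. The smaller of its nsf RNAi values also had to be at least 15% above the larger of its control values. Of the 36019 deposited IDs, 6963 could be taken by this rule, and the 97 are 1.39% of them. The ratio of the smaller nsf RNAi value to the larger control value is called the separation here, so a member has a separation of at least 1.15. Because these values picked the members, their levels and differences between the groups are a description and carry no test.

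All animals were asexual Schmidtea mediterranea of strain CIW4, starved for 7 days or more, then fed double-stranded RNA at 2 feedings 3 days apart, and tail tissue of animals marked 10 dpf was sequenced as poly(A) RNA. The controls (EGFP RNAi, n = 2) received double-stranded RNA of EGFP, a jellyfish protein gene that planarians lack, and the other group (nsf RNAi, n = 2) received that of nsf. Nothing in the labels says whether replicates came from separate animals or cultures, how many animals a library holds, or how far nsf was lowered. The deposited values are labelled as having a batch effect taken out. Counts recovered from them summed to between 7010038 and 9834828 per library.

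The symbol nsf is used for the gene of NSF, the ATPase that pulls apart used SNARE complexes so that their proteins can serve further rounds of membrane fusion. Vesicle traffic, secretion and release of neuropeptides rest on this recycling. Planarians rebuild lost body parts from pluripotent stem cells called neoblasts, and signals from nerves and muscle guide this growth. The files do not pair the IDs with gene names, so no function is attached to any member, neither nsf itself nor markers of the tail's cell types were looked up, and 2 members are given by ID. Others are named by their rank in separation or in abundance.

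A pair of members stood far from the rest. SMED30001888 had the largest separation. In the controls its level was 1.05 TPM (replicate 1) and 6.57 TPM (replicate 2), and after nsf RNAi it was 121 TPM (replicate 1) and 72.8 TPM (replicate 2). Its level was thus low in the controls, which differed 6.26-fold from each other. It was well expressed in both nsf RNAi libraries, of which replicate 1 was the higher, and only these brought its mean past 20 TPM. Behind these levels lay 3 and 26 recovered counts in the controls and 335 and 226 after nsf RNAi, over a recovered length of 531 bases. In bulk tissue, more cells of a type and more RNA per cell cannot be told apart. The count ratio of nsf RNAi to EGFP RNAi was 22.4, with a 95% interval from counting error alone of 15.5 to 33.8.

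The member second in separation was expressed in every library. Its level was 26.8 and 32.5 TPM in the controls and 251 and 165.5 TPM after nsf RNAi, again with nsf RNAi replicate 1 the highest. The smaller nsf RNAi value was 5.09 times the larger control value. With 113 and 190 counts against 1027 and 759, its count ratio was 6.84 (95% counting interval 6.05 to 7.75).

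For the other 95 members the differences were modest. Their separation reached at most 1.47, and the ratio of the group means ran from 1.16 to 1.67 with a median of 1.25. Over all 6963 IDs that the rule could take, the median ratio of the group means was 1.02. Of the 97 members, 41 had a separation of at least 20%, 14 of at least 25% and 9 of at least 30%, and the pair described above were the members past 50%.

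**Figure D1:**
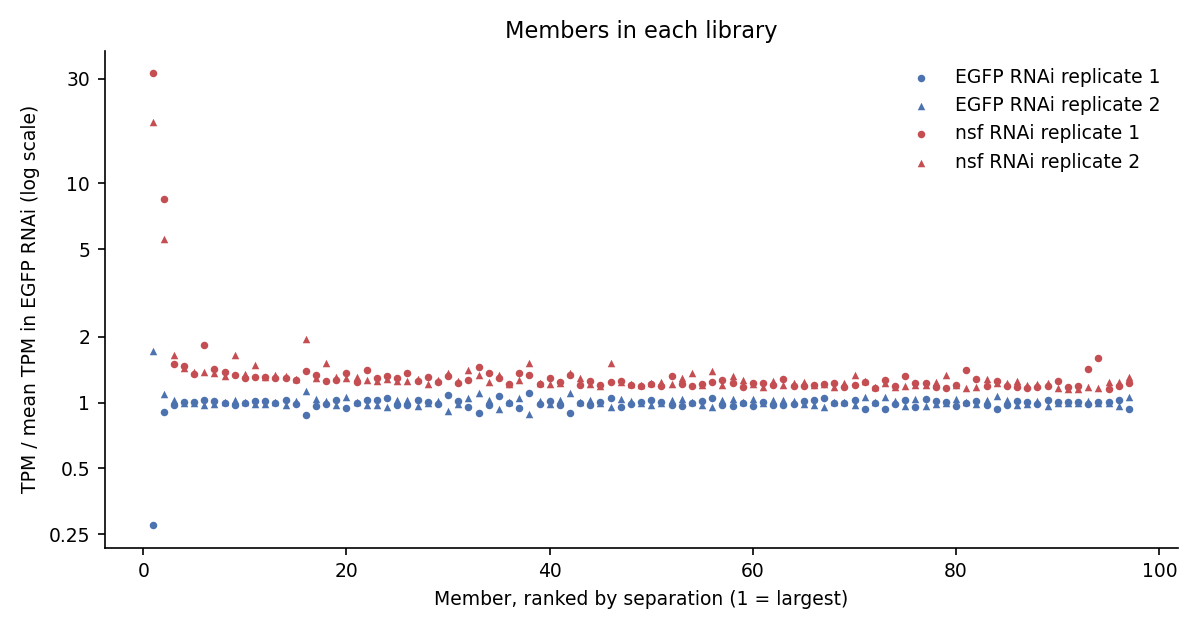
Each member's TPM in the 4 libraries, divided by its mean over both EGFP RNAi libraries (log scale), with members ranked by separation from left to right; colour marks the group and symbol the replicate. The first and second members stand apart, and from the third on the nsf RNAi points form a narrow band above the EGFP RNAi points, with a separation of at most 1.47.

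The most abundant member was SMED30033716, the sixth in separation. Its control values were 157 and 149.5 TPM, and its nsf RNAi values were 282 TPM (replicate 1) and 212 TPM (replicate 2), with group means of 153 ± 5.41 and 247 ± 49.3 TPM (SD, n = 2 each). The controls were close together, while the nsf RNAi libraries differed 1.33-fold. It is one of the best counted members, with 1278 and 1683 counts against 2220 and 1872 over a length of 1510 bases, and its count ratio was 1.60 (95% counting interval 1.53 to 1.68). On the log2(TPM + 1) scale its difference was 0.67, and it lay between 0.47 and 0.87 when a library was left out.

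The second most abundant member had 169.5 and 173 TPM in the controls and 207 and 221 TPM after nsf RNAi. In this transcript the replicates of each group were near each other, and its count ratio of 1.25 had a 95% counting interval of 1.20 to 1.30. The member next in abundance is the one with the second largest separation. After it came a member at 101.6 and 101.3 TPM in the controls and 119 and 117 TPM after nsf RNAi, where both pairs agreed within a few percent. A further pair of members averaged 103 and 101 TPM. No other member had a mean of 100 TPM or more, so that 6 of the 97 did.

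**Figure D2:**
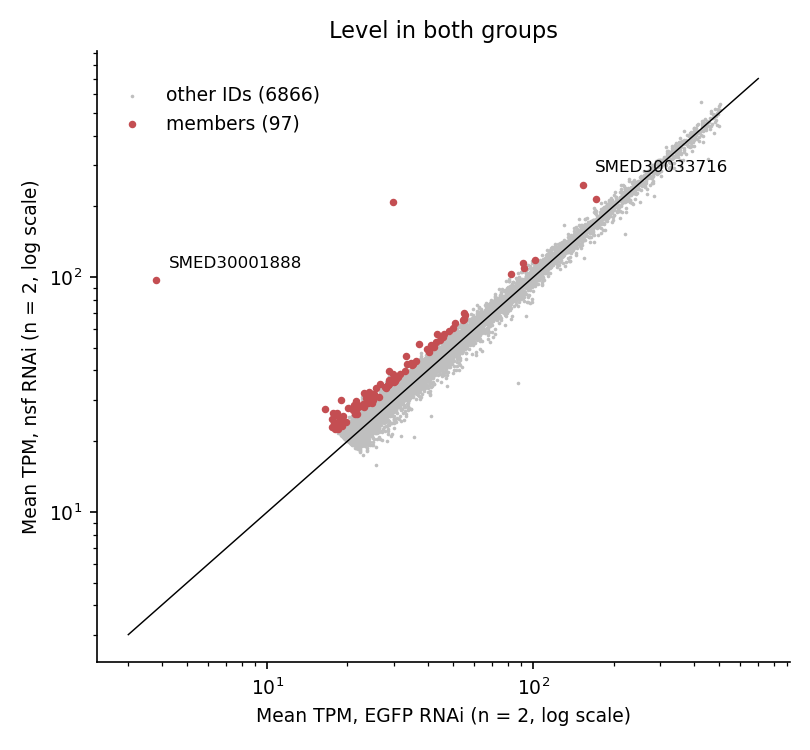
Mean TPM in nsf RNAi against mean TPM in EGFP RNAi (both n = 2, log scales) for the 6963 IDs the rule could take, with the 97 members in red and the line of equal levels in black. SMED30001888 and the member second in separation lie far above the line. The others lie on the upper side of the cloud, mixed with other IDs and mostly below 50 TPM.

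Most members were of moderate abundance. Their mean over the 4 libraries ran from 20.2 to 200.1 TPM with a median of 30.7, against a median of 42.9 for all IDs the rule could take. Members made up 2.38% of the IDs at 20 to 30 TPM (48 of 2020), 1.54% at 30 to 50 TPM (31 of 2009), 0.722% at 50 to 100 TPM (12 of 1663) and 0.472% at 100 TPM or more (6 of 1271). The limit of 20 TPM was reached by 22 members through their nsf RNAi values, since their control mean was below 20 TPM, and the other 75 had a control mean of at least 20 TPM. Among all IDs the rule could take, 145 had a control mean below 20 TPM. Together the members summed to 3259 and 3300 TPM in the EGFP RNAi libraries and to 4509 and 4370 TPM in the nsf RNAi libraries, which was between 0.326% and 0.451% of all TPM. Without the 2 members of largest separation, these sums were 3231 and 3261 TPM against 4137 and 4131 TPM.

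Within each group the members' replicates were mostly close. The larger of the control values was a median of 1.05 times the smaller, and for the nsf RNAi values this was 1.04. Over all IDs the rule could take both medians were 1.05. Neither nsf RNAi library was the higher throughout, since replicate 1 exceeded replicate 2 in 44 of the 97 members, and in the controls replicate 1 was also the higher in 44. The control pair lay within 1 SD of counting error for 84 members (86.6%) and the nsf RNAi pair for 79 (81.4%), against 60.8% and 62.5% of the IDs the rule could take. The rule favours narrow pairs, and any batch adjustment acted on the same values, so nothing is read from these shares.

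A few members had replicates that differed more. The nsf RNAi values were 1.25-fold or more apart in 5 members and the control values in 2. One of them, 16th in separation, had 14.4 and 18.4 TPM in the controls against 22.9 and 31.9 TPM, with replicate 2 the higher in both groups, and rested on 22 to 53 counts per library. Another, 94th in separation, had near-identical controls at 18.6 and 18.3 TPM but 29.6 and 21.4 TPM after nsf RNAi. Both nsf RNAi values of that member cleared the 15% limit, the lower only just, and the difference by the higher was much larger.

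How well a member was measured depended on its counts. The mean recovered count per library ran from 26.2 to 4282 with a median of 204, against 414 for all IDs the rule could take. Counting alone gave the ratio between the groups a median SD of 7.01% for members and of 4.93% for all these IDs, to be set beside the 15% of the rule. For 93 of the 97 members the 95% counting interval of the count ratio lay above 1, which also held, on the higher side, for 16.0% of all 6963 IDs. The interval lay above 1.15 for 19 members and for 23 of the 6963 IDs (0.33%). Since the rule picked members from these same values, nothing is read from either count. Such intervals treat the recovered counts as raw counts, although the values are labelled as adjusted for a batch. They also leave out variation between animals.

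**Figure D3:**
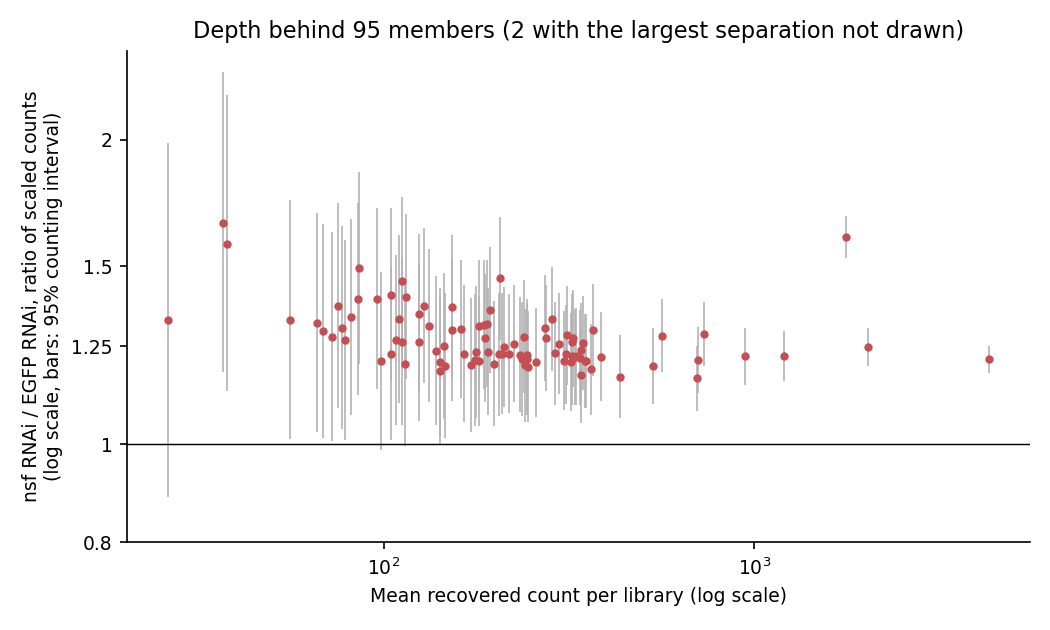
Ratio of recovered counts, scaled by library, of nsf RNAi to EGFP RNAi against the mean recovered count per library (log scales) for 95 members, with bars for the 95% counting interval; the 2 members of largest separation lie off the scale and are not drawn. Intervals narrow from left to right, 4 of them reach below 1, and the point near 1.60 at high counts is SMED30033716.

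Of the 3582 IDs with a mean of 400 counts or more per library, 12 were members, and these had little counting error. The rule picked them for their higher nsf RNAi values, so their ratios and intervals are a description. After the rescaling described further on, 6 of them still met the rule, beside 12 IDs lower in nsf RNAi. The best counted member was also the longest, at 14718 bases. It had 45.9 and 43.1 TPM in the controls and 52.9 and 54.5 TPM after nsf RNAi. Its 8372 control counts and 8757 nsf RNAi counts gave a ratio of 1.21 (95% counting interval 1.18 to 1.25). A member of 3666 bases stood at 52.1 and 48.0 TPM against 61.2 and 60.3 TPM. Another, of 2965 bases, stood at 47.4 and 48.7 TPM against 58.6 and 59.0 TPM. In both the nsf RNAi replicates were within a few percent of each other. Apart from SMED30033716 and the member second in separation, the ratio of the group means in these 12 members lay between 1.16 and 1.30. The lowest bound of a counting interval among the 12 was 1.06.

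The same rule was applied to a crossed pairing of the libraries, in which EGFP RNAi replicate 1 and nsf RNAi replicate 2 form a side against the others. The split by replicate number was not counted. Differences between replicates correlated at -0.42 across IDs between the groups, which sets the crossed pairing wider apart than that split. Its counts are therefore no neutral baseline. With that crossed side higher 41 IDs (0.589%) met it, and with the other side higher 44 IDs (0.632%) did, against the 97 members. With nsf RNAi lower than EGFP RNAi the number was 53 (0.761%) as deposited, and this order turned to 58 higher against 82 lower when the libraries were rescaled, as described further on. Without the 15% limit, 2179 IDs (31.3%) had both nsf RNAi values above both control values. The largest separations in the crossed pairing were 1.41 and 1.53, below those of the first and second members, and on either side of the 1.47 of the third. At a separation of 30% there were 9 members against 4 and 7 IDs in the crossed pairing. Away from the pair of large differences, the crossed pairing also held separations of this size, and it was the number of members that was greater. At a mean of 100 TPM or more the crossed pairing held 0 IDs in either direction, against 6 members and 4 IDs lower in nsf RNAi. That mean includes the nsf RNAi values that picked the members, and some of the 6 reached it only through them. The control means of these were 29.6 TPM (the member second in separation), 91.6 TPM and 92.3 TPM. Nothing is read from this contrast.

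**Figure D4:**
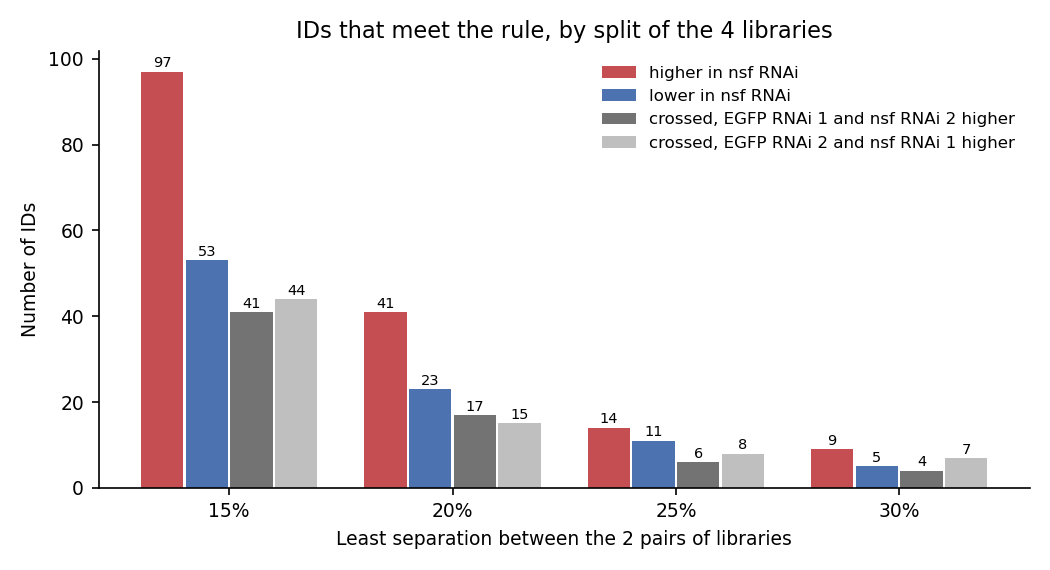
Number of IDs whose higher pair of libraries exceeds the other by at least 15%, 20%, 25% or 30%, for nsf RNAi higher, nsf RNAi lower and both directions of the crossed pairing. In the deposited values, at 15% the bar for nsf RNAi higher stands at 97 and the others between 41 and 53, while at 30% all lie between 4 and 9.

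As deposited, the excess of members over the crossed pairing was clearest among the better counted IDs. Under 100 counts per library 15 members stood beside 16 and 11 IDs of the crossed pairing, out of 334 IDs. From 100 to 200 counts there were 33 members against 14 and 23, and 28 IDs lower in nsf RNAi, out of 1028. From 200 to 400 counts there were 37 members against 11 and 9, out of 2019. At 400 counts or more the 12 members compared with 0 and 1 in the crossed pairing and with 6 IDs lower in nsf RNAi, out of 3582. After rescaling, 6 IDs were higher and 12 lower in nsf RNAi at this depth, with 0 and 2 in the crossed pairing. The mean count includes the nsf RNAi counts. The member second in separation passed 400 through its 1027 and 759 counts there, against 113 and 190 in the controls. IDs met by the crossed pairing were also less abundant, with medians of 26.2 and 27.4 TPM against 30.7 TPM for the members.

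Length was not used by the rule. Members were shorter than the IDs they came from, and in the deposited values outnumbered the IDs lower in nsf RNAi most clearly among long IDs, which rescaling reduced to 7 against 5. The median recovered length was 950 bases for members, 707 bases for IDs lower in nsf RNAi, 712 and 814.5 bases for the crossed pairing and 1449 bases for all IDs the rule could take. Of the members, 51.5% were shorter than 1000 bases, against 29.8% of all these IDs. Short IDs have fewer counts at a given TPM, and the counting SD of the group ratio had a median of 9.02% below 500 bases and of 2.92% at 4000 bases or more. Among the 2087 IDs of 2000 bases or more, 16 were members, 1 was lower in nsf RNAi, and 1 in each direction met the rule in the crossed pairing. Below 500 bases the corresponding numbers were 14, 16, 12 and 10 of 506 IDs.

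Over all IDs the rule could take, the median difference between the groups also varied with length. The median log2 difference of TPM between nsf RNAi and EGFP RNAi was -0.01 below 500 bases, 0.01 at 500 to 1000, 0.03 at 1000 to 2000, 0.04 at 2000 to 4000 and 0.06 at 4000 bases or more. Single IDs went both ways, with an SD across IDs of 0.07 to 0.21 within these classes. In the crossed pairing the median stayed between 0.0018 and 0.0060. At 4000 bases or more both control libraries lay below the mean of the 4 libraries (-0.02 and -0.04 on the log2 scale) and both nsf RNAi libraries above it (0.04 and 0.02). The part of this shift in the long members was not tested.

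**Figure D5:**
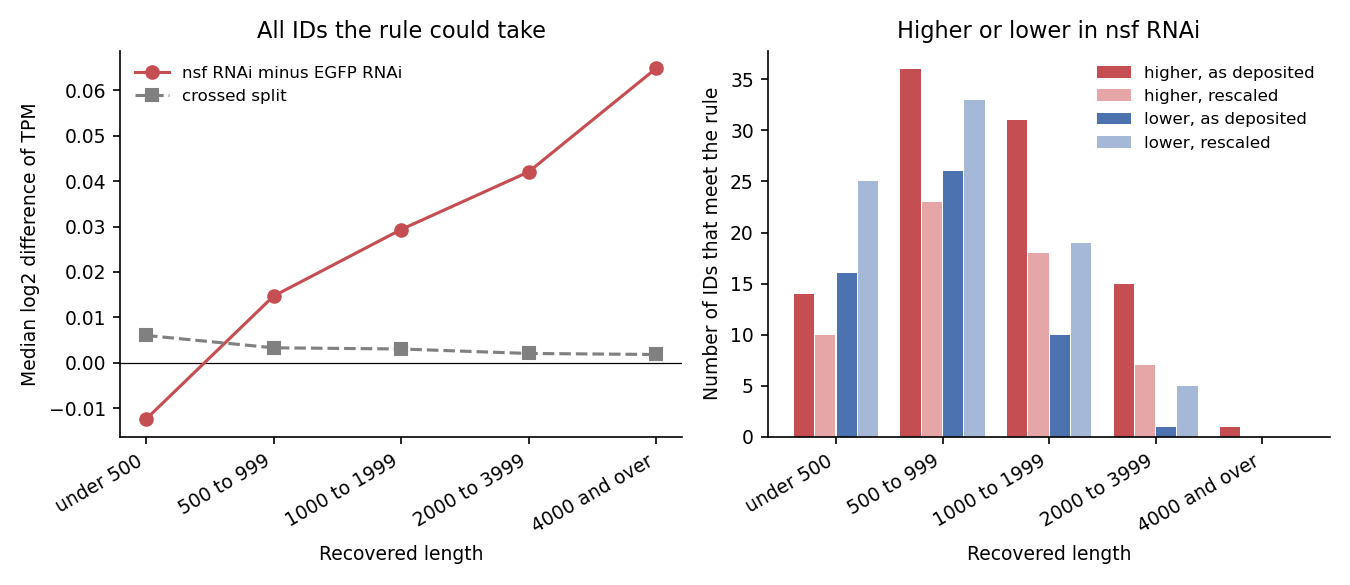
Left, the median log2 difference of TPM by class of recovered length over the 6963 IDs, for nsf RNAi minus EGFP RNAi and for the crossed pairing. Right, the number of IDs that meet the 15% rule as higher or lower in nsf RNAi in each class, as deposited and after rescaling the libraries; the group difference climbs from -0.01 to 0.06 with length, and below 4000 bases rescaling lowers the red bars and raises the blue ones.

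Which direction held more IDs depended on how the libraries were scaled, and which scale is nearer to the RNA levels was not tested. Each TPM column adds up to the same total, and the 300 most abundant IDs took 420825 and 423299 TPM in the EGFP RNAi libraries but 412772 and 413565 TPM in the nsf RNAi libraries, so that the other IDs together had a larger share after nsf RNAi. The part of this in the members was not tested. When the libraries were put on a common median, so that the median log2 ratio became 0, which shifted the groups by about 0.03 on the log2 scale, 58 of the 97 members still met the rule and no further ID joined them. IDs lower in nsf RNAi then numbered 82, and the crossed pairing gave 37 and 45. Of the 12 members with 400 counts or more, 6 still met it, beside 12 IDs lower in nsf RNAi. Among IDs of 2000 bases or more, 7 were higher and 5 lower after rescaling. With rescaled values the greater number was thus in the lower direction, and the number higher in nsf RNAi was still above both counts of the crossed pairing.

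The limit of 15% cut through a continuous run of values. Just inside it, members had separations of 1.1504, 1.1508 and 1.1510, and just outside it other IDs had 1.1497, 1.1486 and 1.1477. The innermost of them, at 20.8 and 23.7 TPM against 27.2 and 29.2 TPM, did not differ in kind from its neighbour outside, at 20.9 and 23.9 TPM against 27.5 and 28.5 TPM. The number of IDs also depended on every library being asked for. It was 318 without EGFP RNAi replicate 1, 329 without EGFP RNAi replicate 2, 259 without nsf RNAi replicate 1 and 321 without nsf RNAi replicate 2, since a rule over 3 libraries is easier to meet.

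A limma fit covered the 19555 IDs whose mean reached 1 TPM. There, 0 members were called higher at an adjusted p under 0.05, as were 0 of all IDs (0.0%). At an unadjusted p under 0.05 the members higher in nsf RNAi numbered 95 of 97, against 766 of all IDs (3.92%). Limma's voom on the recovered counts called 5 members higher, against 8 of 16761 IDs (0.0477%), and limma without the replicate block called 1 member among 2 IDs higher. As the rule had already used this comparison, none of these counts is evidence about the members. On the log2(TPM + 1) scale, the differences of the members ran from 0.21 to 4.59 with a median of 0.32, where the median over all IDs tested was 0.03.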

How the data were processed

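The deposited table holds TPM for 4 libraries, which the authors scaled to 1000000 per column; a batch effect had been taken out, per the name of the table. The submitters' processing notes name SAMtools; for the aligner, annotation, build and batch method the record is: not given in the sources used here. Members and tests were chosen with earlier results of these data known. Members were found from the deposited TPM without rescaling (Python 3.11.15, pandas 2.3.3). The 2 IDs printed are the members with the largest separation and with the highest mean. Whole counts (within 0.001) and lengths were recovered from the most frequent ratios between libraries for 26183 IDs, including every ID the rule could take. Where all counts and the length of an ID share a whole factor, both come out divided by it. Recovered counts and lengths are thus lower bounds, and how many IDs this touched was not counted. A value in at least 2 libraries was held by 26187 IDs. The deposited values thus fit whole counts with a single factor per library. At which step, or whether, a batch effect was taken out cannot be told from them. The unit of length is taken to be bases, which the files do not state. Counting intervals are exact conditional binomial intervals at 95% (scipy 1.17.1). The fit was limma 3.58.1 in R 4.3.3 on log2(TPM + 1), with an abundance trend and a block for the replicate number. Its p-values were adjusted after Benjamini and Hochberg. It was also run on simulated data, without a batch step and with larger differences than most members had. That run therefore does not cover differences as small as theirs. With the block 1 residual degree of freedom remains, so p-values measure the spread of the crossed pairing, which may be technical. Limma moderated this spread in each ID by that of all IDs, which gave 5.83 degrees of freedom in total. Alternatives were other limits, rescaling, fits without the block and each library left out.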

Additional observations from a re-analysis of the deposited data

How the results depend on the processing

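The count of members moved with the limits on separation and on level, and both directions of the crossed pairing moved with it. At a separation of at least 10% there were 279 members against 136 and 116 IDs, and at 25% 14 against 6 and 8. At a mean of at least 10 TPM the counts were 230 against 151 and 128, and at 50 TPM 18 against 1 and 5. Rescaling gave 58 members, while keeping the 300 most abundant IDs added 1 and left the crossed counts at 41 and 44. Leaving out a library gave between 259 and 329. The log2 differences of SMED30001888 and SMED30033716 ran from 3.65 to 5.53 and from 0.47 to 0.87 over the 10 alternatives run on each. The rule asks both nsf RNAi values to lie above both control values. Leaving out a library or changing the fit therefore could not turn their direction, and nothing is read from its staying the same.

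With the replicate number as a block limma called 1 ID, lower in nsf RNAi and no member. It called 3 with no replicate block (2 higher, 1 of them a member), 2 with no filter on low values (1 higher, a member), and 0 with any of a pseudocount of 0.1, a filter at 5 TPM or no abundance trend. Leaving out a library gave between 0 and 48, with at most 37 higher and 5 members. The causes were not tested. Differences between replicates correlated at -0.42 across IDs between the groups. Taking out a batch shared by a replicate number would itself lower this value, and both replicate 2 titles carry an unexplained suffix (-p), so whether the numbers pair the libraries cannot be told. Chosen after the data were seen, a crossed replicate block called 31 (27 higher, 2 members) and voom with the replicate block 26 (8 higher, 5 members). That no ID was called higher therefore depends on the fit. Depth limits members under 100 counts per library most.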
